A study of Mus musculus with 4 samples.

Results

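Genes that encode neuropeptides and an enteric transmitter enzyme were followed through spatial transcriptomes of developing mouse tissue. The 8 genes were taken by symbol from the 32285 genes of the deposited tables: Cartpt, Vip, Npy, Gal, Penk, Tac1, Sst and Nos1. The data came from 4 Visium sections of untreated wild-type mice, each 8 µm thick and cut from fresh frozen tissue. The sections were 1 of embryonic stage E13.5 and 1 of E16.5, both with mouse embryo as the tissue label and embryonic esophagus in the title, and 2 at postnatal day 0 (P0), both labelled as esophagus in tissue and title. The study concerns progenitors of esophageal epithelium and muscle, and the nerve genes of the wall were measured along with them.

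Visium slides carry spots with position barcodes that capture the RNA of the cells above them, and captured molecules are counted as unique molecular identifiers (UMIs). A spot can hold several cells of different kinds, so every level given here is that of a mixture, and fewer cells of a kind and less RNA per cell cannot be told apart. The files held 271 to 3593 spots and 7357333 to 105835664 UMIs per section, and the 264 to 3588 spots with at least 500 UMIs were kept. None of the 8 genes had a UMI in the spots left out. Between 24 and 2542 barcodes were shared by pairs of sections; a Visium barcode names a grid position on a slide, not a cell. A level is a gene's UMIs out of 1000000 (CPM), and the interval beside it is an exact Poisson 95% interval, for counting error only. All markers of the epithelium (10), smooth muscle (6), striated muscle (8), neuron (10) and glia (7) lists were detected in both P0 sections, and in both embryo sections too, so detection alone does not tell an esophagus from other tissue. The striated muscle list differed between the P0 sections, at 1109 CPM in replicate 1 and 3430 CPM in replicate 2.

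The gut wall holds its own nervous system, whose neurons lie in ganglia between and beneath the muscle layers. Inhibitory motor neurons release nitric oxide, made by the enzyme that Nos1 encodes, together with vasoactive intestinal peptide, the product of Vip, and relax muscle. Tachykinins such as substance P, made from the Tac1 precursor, act with acetylcholine to contract it. Neuropeptide Y (Npy), galanin (Gal), the CART peptides (Cartpt), enkephalins (Penk) and somatostatin (Sst) are found in further classes of enteric neurons and, each in its own pattern, in brain, spinal cord and peripheral ganglia. In the rodent esophagus, whose outer muscle becomes striated around birth, enteric neurons that contain nitric oxide synthase also contact the motor endplates.

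In the RefSeq annotation of GRCm38.p6, Cartpt (ENSMUSG00000021647) lies on chromosome 13 from 99898483 to 99910179 and Vip (ENSMUSG00000019772) on chromosome 10 from 5639193 to 5647617. Npy (ENSMUSG00000029819) and Tac1 (ENSMUSG00000061762) are both on chromosome 6, from 49822710 to 49829507 and from 7555061 to 7562978. Gal (ENSMUSG00000024907) spans 3409915 to 3414544 on chromosome 19, and Penk (ENSMUSG00000045573) spans 4133536 to 4138815 on chromosome 4. Sst (ENSMUSG00000004366) spans 23889573 to 23891342 on chromosome 16, and Nos1 (ENSMUSG00000029361) spans 117866839 to 117958840 on chromosome 5.

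Several neuropeptide genes are known for promoters that answer to cyclic AMP through the palindrome TGACGTCA, and the somatostatin promoter is the textbook case. The RefSeq promoter table held windows of 300 bases (250 before and 50 after a gene's start) for 7 of the 8 genes; Penk was not among them. The 250 bases before the start are shown 5′ to 3′ for Cartpt, Vip and Npy, the peptide genes with the largest fold changes in nerve-rich spots of the P0 wall among those tested, and for Sst, which had no UMI there. Capitals mark the palindrome, or its 5-base core TGACG where the core stands alone, searched on both strands; each palindrome also holds the core.
Cartpt: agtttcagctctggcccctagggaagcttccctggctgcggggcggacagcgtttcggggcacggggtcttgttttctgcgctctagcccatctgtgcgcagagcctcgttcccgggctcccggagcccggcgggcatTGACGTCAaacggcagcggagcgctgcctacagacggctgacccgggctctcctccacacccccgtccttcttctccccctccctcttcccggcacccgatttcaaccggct
Vip: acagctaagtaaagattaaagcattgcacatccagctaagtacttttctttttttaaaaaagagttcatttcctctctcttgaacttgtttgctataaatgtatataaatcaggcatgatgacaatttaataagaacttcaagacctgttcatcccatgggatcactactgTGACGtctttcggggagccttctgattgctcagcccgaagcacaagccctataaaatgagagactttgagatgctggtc
Npy: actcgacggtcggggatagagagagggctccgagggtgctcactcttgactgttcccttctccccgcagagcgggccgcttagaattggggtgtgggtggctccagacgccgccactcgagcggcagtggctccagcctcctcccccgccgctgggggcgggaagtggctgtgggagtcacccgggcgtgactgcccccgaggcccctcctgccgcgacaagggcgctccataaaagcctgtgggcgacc
Sst: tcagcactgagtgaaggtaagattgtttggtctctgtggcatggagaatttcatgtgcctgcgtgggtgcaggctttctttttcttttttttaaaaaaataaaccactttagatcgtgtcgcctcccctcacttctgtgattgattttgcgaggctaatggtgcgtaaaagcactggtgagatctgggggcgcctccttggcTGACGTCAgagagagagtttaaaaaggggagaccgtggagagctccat
These stretches are chr13:99900684-99900933 on the minus strand, chr10:5638968-5639217 on the plus strand, chr6:49822460-49822709 on the plus strand and chr16:23890845-23891094 on the minus strand of GRCm38.p6. The starts used for Cartpt and Sst lie inside the annotated genes. The palindrome was found 112 bases before the start of Cartpt and 48 bases before that of Sst, and in 588 of 32817 promoter windows of the same length (1.79%). The core occurred in 6 of the 7 windows, those of Cartpt, Vip, Gal, Tac1, Sst and Nos1, and in 20.8% of all windows. Npy had neither. The palindrome was thus shared by a gene with many UMIs in the P0 wall and a gene with none, and these matches of letters are a description and not a measure of binding.

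Sst separated the embryo sections from the P0 esophagus most fully. The E13.5 section had 86.7 CPM (84.9 to 88.6), with a UMI in 1267 spots, and the E16.5 section 45.4 CPM (44.1 to 46.7), with a UMI in 1180. The P0 sections had 0 Sst UMIs in 10261248 and in 7357333 UMIs. With the 3 counts that a count of 0 allows, the P0 sections were at least 155-fold and at least 111-fold lower than E16.5, and up to 0.826% and 1.14% of their spots could hold a UMI. Embryo sections take in many organs and P0 sections the esophagus, so stage and tissue change together in every such ratio, and the single embryo sections give no test.

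Npy, Gal and Tac1 were also far lower in the P0 sections. Npy stood at 132 CPM at E13.5, 26.6 CPM at E16.5 and 3.51 and 1.77 CPM at P0. Gal stood at 15.9, 9.46, 0.877 and 0.544 CPM in the same order, the P0 values resting on 9 and 4 UMIs. Tac1 stood at 28.0 CPM at E13.5, 44.4 CPM at E16.5 and 0.585 and 1.63 CPM at P0, from 6 and 12 UMIs. For each of these 3 genes the intervals of both P0 sections lay wholly below those of both embryo sections, while the intervals of the P0 sections overlapped each other. The log2 ratio of Npy between the P0 sections, replicate 2 over replicate 1, was −0.99 (−2.03 to −0.04).

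Vip ran the other way. The embryo sections had 2.30 CPM (E13.5, 2.01 to 2.62) and 2.02 CPM (E16.5, 1.76 to 2.31), P0 replicate 1 had 11.1 CPM (9.16 to 13.3) and P0 replicate 2 had 4.62 CPM (3.20 to 6.46). The embryo sections were not separable at this depth, both P0 sections lay above them, and replicate 2 was below replicate 1 by 1.27 on the log2 scale (interval −1.86 to −0.70 for replicate 2 over replicate 1). Of all 8 genes, Vip alone was higher in both P0 sections than in both embryo sections.

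Cartpt and Penk were lower in the P0 sections by less than Npy, Gal and Tac1 were. Cartpt stood at 49.0 CPM at E13.5, 37.3 CPM at E16.5, and 21.6 and 20.4 CPM at P0, a mean of 21.0 ± 0.880 CPM (SD, n = 2). Penk stood at 86.5 CPM at E13.5, 113 CPM at E16.5, and 38.7 and 50.7 CPM at P0, a mean of 44.7 ± 8.50 CPM (SD, n = 2). Nos1 was low throughout, at 2.65, 5.90, 3.12 and 2.85 CPM, and the intervals of both P0 sections reached into that of E13.5. Cartpt was higher in both embryo sections than in either P0 section, and so was Penk.

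Between the embryo sections the genes split in direction. E16.5 over E13.5 gave log2 ratios of 1.16 for Nos1 (0.95 to 1.37), 0.67 for Tac1 (0.60 to 0.73) and 0.38 for Penk (0.34 to 0.42). The ratios were −2.31 for Npy (−2.37 to −2.25), −0.93 for Sst (−0.99 to −0.88), −0.75 for Gal (−0.86 to −0.63) and −0.39 for Cartpt (−0.45 to −0.33). Vip, at −0.19 (−0.46 to 0.09), had no direction beyond counting error. The median over 19083 genes was −0.11, and the organs cut by the 2 sections may differ, which was not tested.

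**Figure D1:**
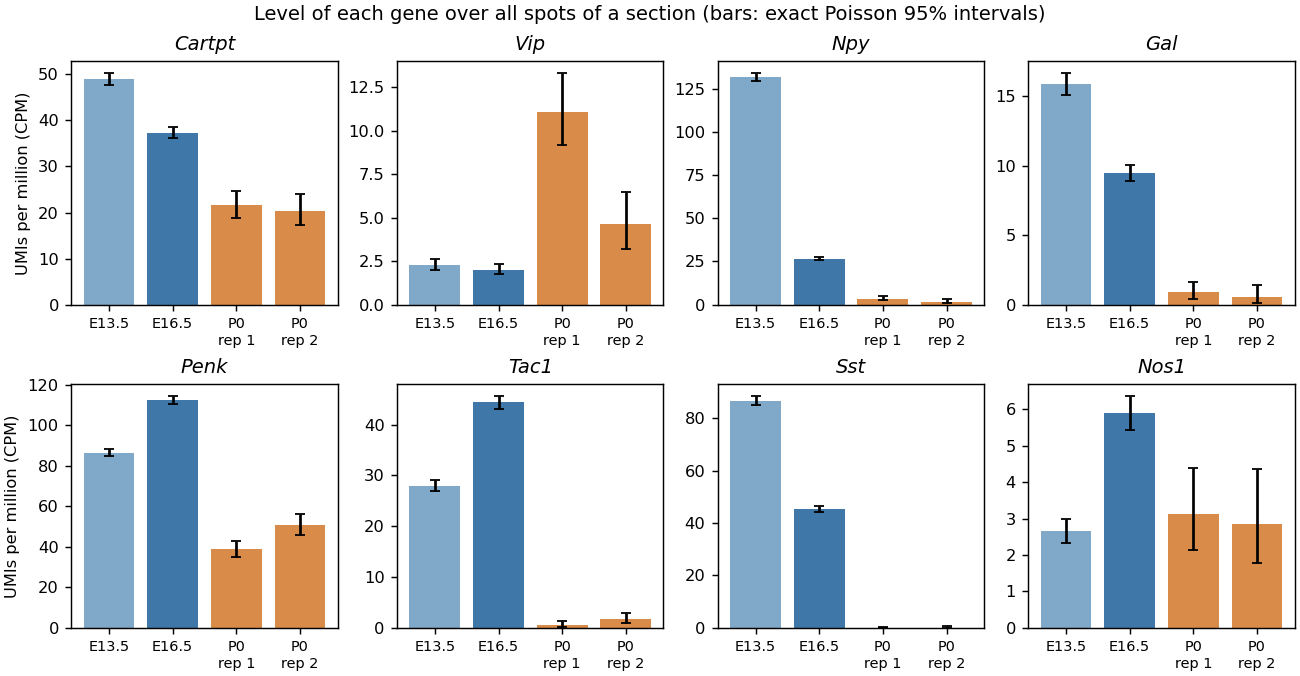
Level of each gene in CPM (vertical axes, a separate scale per gene) in the E13.5, E16.5 and both P0 sections, with exact Poisson 95% intervals. Sst is at 0 in both P0 sections, and Vip is the gene whose P0 bars, 11.1 and 4.62 CPM, stand above both embryo bars.

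The share of spots with a UMI set Penk apart from the rest. Penk was present in 64.6% of spots at E13.5, 76.5% at E16.5, and 54.3% and 61.7% at P0 (197 of 363 and 163 of 264 spots). Cartpt was present in 28.9%, 27.6%, 15.4% and 8.71% of spots, although its level was alike in the P0 sections. Vip was present in 3.63%, 3.93%, 11.02% and 6.06% of spots, and Nos1 in 6.80%, 12.5%, 4.96% and 3.41%. With each spot thinned to 10000 UMIs, which left out 12 to 450 shallower spots per section, Penk was present in 41.6%, 53.3%, 32.8% and 38.9% of spots and Cartpt in 15.4%, 17.4%, 8.83% and 6.88%.

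In the P0 sections most UMIs of Cartpt, Vip, Npy and Nos1 lay in a few spots, while the few UMIs of Gal in replicate 2 (4 in 4 spots) and of Tac1 in replicate 1 (6 in 6 spots) were scattered. Spots with at least 10 UMIs of these 6 genes together numbered 9 of 363 in replicate 1 and 5 of 264 in replicate 2. Both the 6 genes and the spots were chosen by these very counts, so what follows describes them and is not a test. Their sums were 47, 44, 41, 34, 33, 31, 26, 21 and 16 UMIs in replicate 1, where the next spot held 5. In replicate 2 the sums were 58, 41, 39, 35 and 10 UMIs, and the next spot held 4. The spots were isolated in replicate 1, where none touched another, and 3 of the 5 touched another in replicate 2.

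These 14 spots made up 2.48% and 1.89% of the spots of a section and took 2.33% and 2.28% of its UMIs. They held 160 of 222 Cartpt UMIs in replicate 1 (72.1%) and 127 of 150 in replicate 2 (84.7%). For Vip they held 68.4% and 61.8%, for Npy 63.9% and 84.6%, and for Nos1 71.9% and 76.2%. Gal had 8 of its 9 UMIs there in replicate 1 and 1 of 4 in replicate 2. Tac1 had 1 of 6 and 7 of 12 UMIs there, and all 7 came from a single spot. Penk was the exception, with 7 of 397 and 7 of 373 UMIs, shares of 1.76% and 1.88% that lay below the share of all UMIs in these spots. That shortfall was within counting error. Penk had 29.3 CPM there in replicate 1 (11.8 to 60.4), against 38.9 CPM in the other spots. In replicate 2 it had 41.8 CPM (16.8 to 86.1), against 50.9 CPM.

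Cartpt and Vip were present in all 14 spots, in varied amounts. The spot with most Vip held 18 Vip and 10 Cartpt UMIs (replicate 1), and the spot with most Cartpt held 47 Cartpt and 6 Vip UMIs (replicate 2). Nos1, the nitric oxide synthase gene, was present in 13 of the 14 spots. The neuron list, made of general neuronal genes such as Tubb3 and Elavl4, summed to 1227 and 1474 CPM in these spots, against 40.8 and 46.7 CPM in all others. The glia list summed to 176 and 442 CPM in these spots, against 117 and 138 CPM in the others, and the smooth muscle list to 17774 and 12734 CPM, against 6526 and 4379 CPM. The striated muscle list summed to 3735 and 11111 CPM in these spots, against 1047 and 3251 CPM in the others, and the epithelium list to 1729 and 424 CPM, against 11769 and 12118 CPM.

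**Figure D2:**
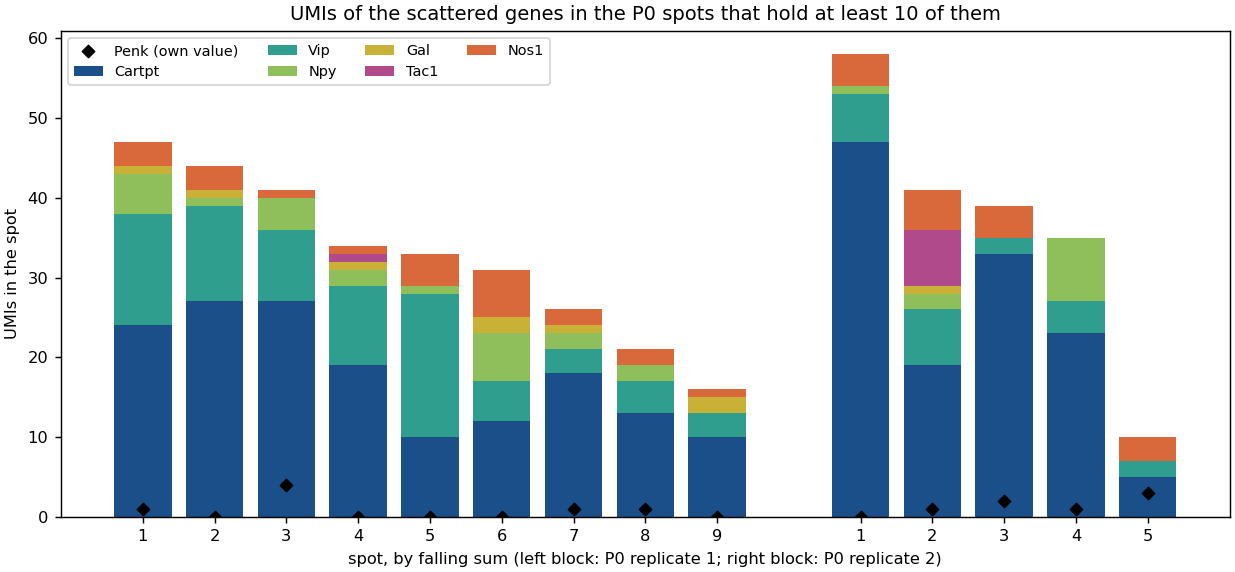
UMIs of Cartpt, Vip, Npy, Gal, Tac1 and Nos1 (stacked bars) and of Penk (black diamonds, on the same axis) in the 9 spots of P0 replicate 1 and the 5 spots of replicate 2 that held at least 10 UMIs of the 6 stacked genes. Cartpt and Vip appear in every bar, the 7 Tac1 UMIs sit in a single bar of replicate 2, and Penk reaches at most 4 UMIs.

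The place of the genes was then set against regions of the P0 wall. Spots were scored by the mean of log(1 + UMIs per 10000) over marker genes, and the highest 25% by epithelial or by muscle markers were called epithelium-rich or muscle-rich (91 spots of each in replicate 1, 66 of each in replicate 2). Nerve-rich spots were the highest 15% by 17 neuron and glia markers, 54 and 40 spots. None of the 8 genes is a marker. Of the nerve-rich spots, 38 and 22 were also muscle-rich and 1 in each section was epithelium-rich. All 14 spots with high sums were nerve-rich, and 13 of them were muscle-rich.

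**Figure D3:**
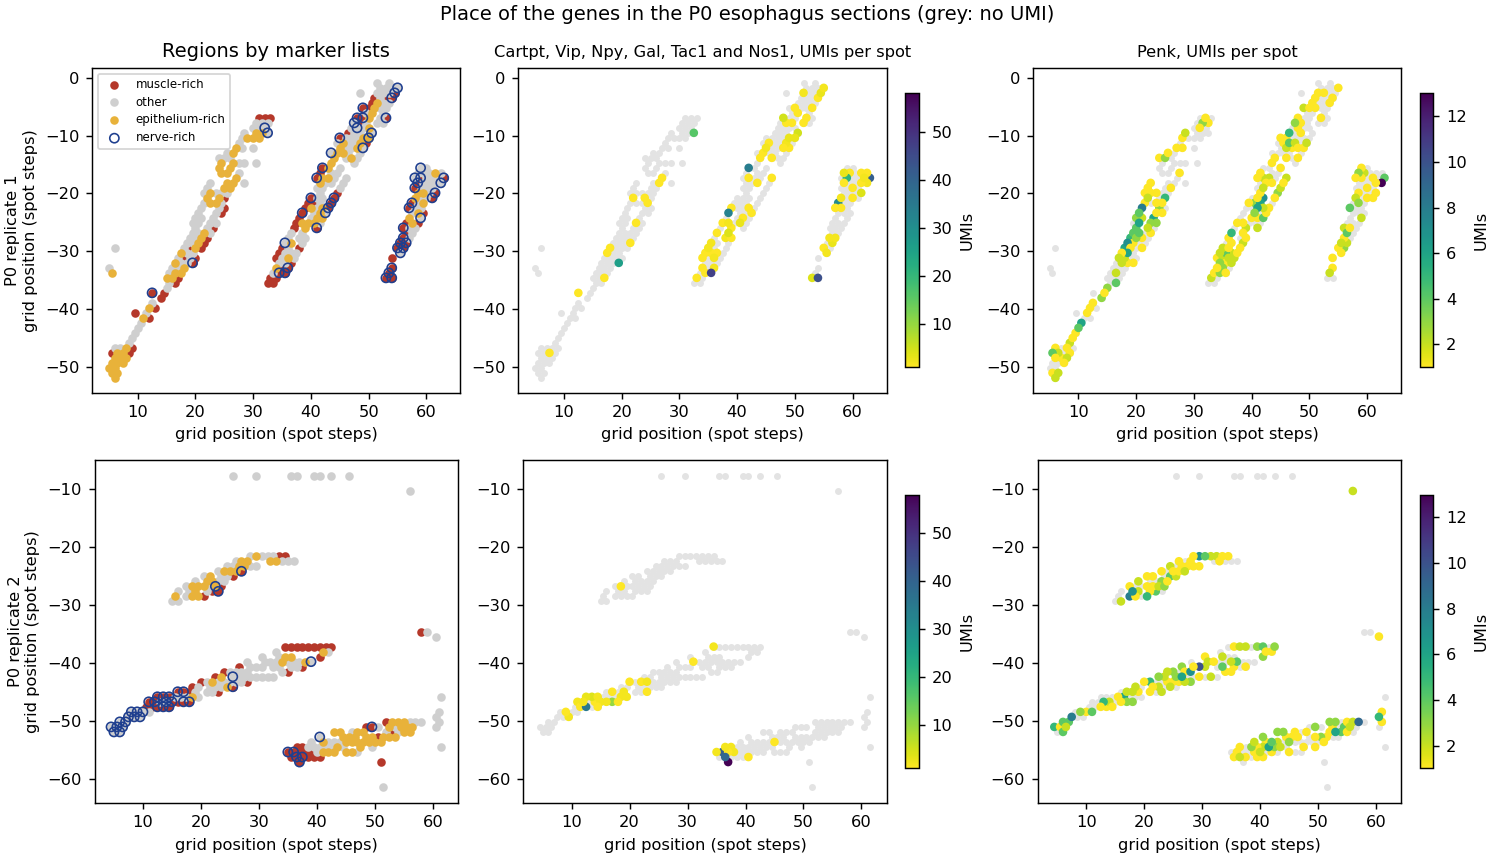
Spots of the P0 sections at their grid positions (steps of 1 spot): regions by marker lists (left, nerve-rich spots ringed), summed UMIs of Cartpt, Vip, Npy, Gal, Tac1 and Nos1 (middle) and Penk UMIs (right). The 6 genes form isolated dark spots of up to 58 UMIs on ringed positions, whereas Penk is spread along the wall at up to 13 UMIs per spot.

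Muscle-rich spots held more of every member that could be tested than epithelium-rich spots did. Cartpt, whose peptides act as neuromodulators, had 86.4 and 91.3 CPM in muscle-rich spots (171 and 143 UMIs), against 3.78 and 0.347 CPM in epithelium-rich spots (14 and 1 UMIs). Both muscle-rich values were far above both epithelium-rich values, a log2 fold change of 5.03 ± 0.36 (SE, 2 sections; edgeR quasi-likelihood test, adjusted p = 3.48e-10). Vip, the relaxant peptide, had 43.4 and 19.8 CPM in muscle-rich spots, against 3.78 and 0.347 CPM in epithelium-rich spots. The muscle-rich values of Vip differed between the sections more than those of Cartpt and still did not overlap the epithelium-rich ones (log2 fold change 3.61 ± 0.36, adjusted p = 4.58e-08).

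Nos1 had 12.1 and 13.4 CPM in muscle-rich spots, against 0.809 and 0 CPM in epithelium-rich spots, a log2 fold change of 4.45 ± 0.72 (adjusted p = 2.75e-05). Npy had 12.1 and 7.66 CPM in muscle-rich spots, against 1.35 and 0.347 CPM in epithelium-rich spots, a log2 fold change of 3.20 ± 0.63 (adjusted p = 0.000242). Penk, the enkephalin precursor, had 51.5 and 58.8 CPM in muscle-rich spots, against 13.48 and 20.5 CPM in epithelium-rich spots, and its log2 fold change of 1.47 ± 0.17 (adjusted p = 4.09e-07) was the smallest of the 5. For each of these genes the muscle-rich values of both sections stood above the epithelium-rich values of both.

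So 5 of 5 tested members rose, where 29.4% of the 12689 genes tested were called higher, 26.7% lower and 56.0% in either direction. The 5 passed a filter on low counts, 4 of them chiefly through the region where they were high, so their number is not support for a rule about such genes. Gal, Tac1 and Sst had too few UMIs for the fit. Gal had 7 and 2 UMIs in muscle-rich spots and 0 and 1 in epithelium-rich spots, and Tac1 had 5 and 9 UMIs in muscle-rich spots and 0 and 1 in epithelium-rich spots.

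Other genes moved across the same regions. The neuron list summed to 233 and 256 CPM in muscle-rich spots, against 16.7 and 6.25 CPM in epithelium-rich spots, and the mesenchyme list to 14193 and 12371 CPM, against 2947 and 2819 CPM. The blood list, of hemoglobin genes, stood at 1777 and 2271 CPM, against 203 and 160 CPM. Muscle-rich spots were shallower, with medians of 20274 and 22535.5 UMIs, against 39325 and 38936.5 UMIs in epithelium-rich spots. The part of these shifts in the members' values was not tested.

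Nerve-rich spots drew the members apart from each other. They were compared with the other wall spots, those neither nerve-rich nor epithelium-rich (219 and 159 spots), which had near medians of UMIs: 20660.5 and 21176.5 in nerve-rich spots, against 21904 and 21892. Cartpt had 149 CPM in the nerve-rich spots of both sections, against 4.68 and 3.06 CPM in other wall spots, a log2 fold change of 5.12 ± 0.24 (adjusted p = 2.97e-10). Vip had 71.9 and 29.1 CPM in nerve-rich spots, against 2.25 and 1.67 CPM in other wall spots, a log2 fold change of 4.62 ± 0.35 (adjusted p = 5.34e-08). The nerve-rich Cartpt values were nearly equal while those of Vip were not, and neither gene's regions overlapped.

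Npy had 23.4 and 12.9 CPM in nerve-rich spots, against 0.374 and 0 CPM in other wall spots (2 and 0 UMIs), and Nos1 had 19.4 and 20.5 CPM, against 0.936 and 0.557 CPM. The log2 fold changes were 6.10 ± 0.65 for Npy (adjusted p = 2.34e-06) and 4.52 ± 0.55 for Nos1 (adjusted p = 9.88e-06). Tac1 had 3.23 and 9.71 CPM in nerve-rich spots (4 and 9 UMIs), against 0.374 and 0.557 CPM in other wall spots (2 and 2 UMIs), a log2 fold change of 3.49 ± 0.82 (adjusted p = 0.00436). The Tac1 call rested on few molecules: without the highest spot of each section, chosen after the data were seen, Tac1 fell below the filter and was not tested, and with DESeq2 its adjusted p was 0.0598.

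Penk differed from the others. It had 52.5 and 66.9 CPM in nerve-rich spots, against 52.8 and 70.8 CPM in other wall spots, with both pairs of values overlapping across sections. Its log2 fold change of −0.13 ± 0.15 did not pass the test (adjusted p = 0.600). Of the 6 members tested here 5 rose, where 11.6% of 12975 genes were called higher, 12.3% lower and 23.8% in either direction. Npy, Tac1 and Nos1 had 0 to 5 UMIs in the other wall spots of a section, and Vip had 12 and 6. Vip, Npy, Tac1 and Nos1 all passed the count filter through the nerve-rich spots, so this number too is no support for a rule about such genes. Gal was not tested and had 9 and 2 UMIs in nerve-rich spots and 0 and 1 in other wall spots. Without the highest spot of each gene in each section, the log2 fold changes were 4.80 for Cartpt, 4.30 for Vip, 5.53 for Npy and 4.14 for Nos1, each still called.

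The makeup of the nerve-rich spots was mixed. The neuron list summed to 397 and 490 CPM there, against 29.0 and 31.2 CPM in other wall spots, and the glia list to 263 and 463 CPM, against 78.8 and 81.9 CPM. The smooth muscle list also moved, to 17827 and 11474 CPM in nerve-rich spots, against 7825 and 5729 CPM, and the epithelium list stood at 2802 and 1740 CPM, against 9601 and 9779 CPM. The endothelium list summed to 248 and 565 CPM in nerve-rich spots, against 204 and 148 CPM. The part of these lists in the members' values was not tested. When nerve-rich spots were chosen by glia markers alone, 3 members were called higher, and Vip did not pass, at 1.19 on the log2 scale (adjusted p = 0.191); by neuron markers alone the number stayed at 5.

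**Figure D4:**
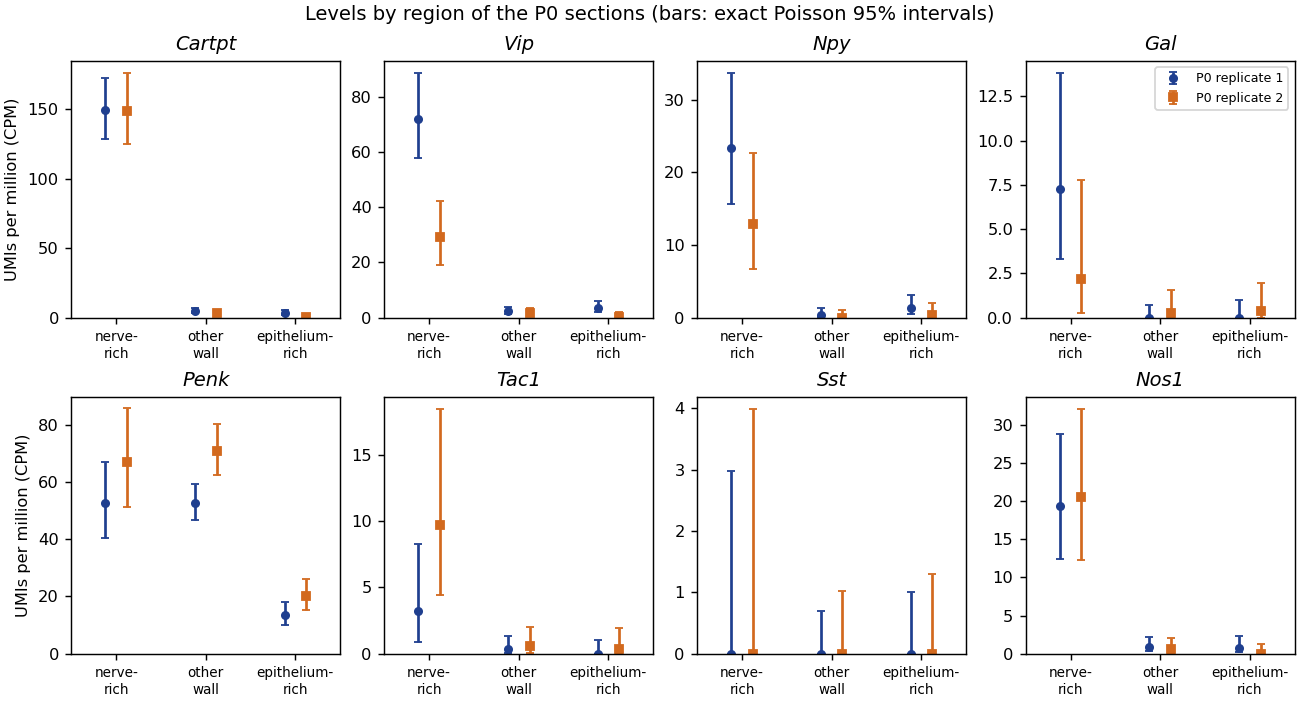
Level of each gene in CPM (vertical axes, a separate scale per gene) in nerve-rich, other wall and epithelium-rich spots of P0 replicate 1 (circles) and replicate 2 (squares), with exact Poisson 95% intervals. Cartpt, Vip, Npy and Nos1 are highest in nerve-rich spots, Penk is alike in nerve-rich and other wall spots and lower in epithelium-rich spots, and Sst is at 0 throughout.

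Distance from the epithelium gave a second view of place. Cartpt in replicate 1 had 3.78 CPM in epithelium-rich spots and 17.2, 52.8, 22.4 and 66.0 CPM at 1, 2, 3 and at least 4 spot steps from the nearest of them. In replicate 2 the values were 0.347, 1.62, 7.44, 6.26 and 92.1 CPM. Penk had 13.48, 47.3, 69.1, 58.0 and 26.4 CPM over the same steps in replicate 1 and 20.5, 84.2, 59.5, 53.2 and 62.0 CPM in replicate 2. The farthest class, of 18 spots in replicate 1 and 70 in replicate 2, had the highest Cartpt value in both sections, and Penk was already high 1 to 2 steps out. In replicate 1 that rank rested on 1 spot with 27 Cartpt UMIs in a small detached group: without the highest spot of each class, an alternative chosen after the data were seen, Cartpt had 16.3 CPM in the farthest class and 38.8 CPM at 2 steps. In replicate 2 the farthest class still had 62.0 CPM without its highest spot, against at most 3.42 CPM in the classes nearer the epithelium. A class is a distance on the grid and not a layer of the wall. The farthest class also had the highest mean nerve score, 0.140 in replicate 1 and 0.156 in replicate 2. The classes nearer the epithelium had at most 0.091 and 0.062, and the part of this in the Cartpt values was not tested.

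The genes were also counted in the same spots. A Vip UMI was present in 22 of 56 Cartpt spots in replicate 1 (39.3%, against 5.86% of the other 307 spots) and in 12 of 23 in replicate 2 (52.2%, against 1.66% of the other 241). Nos1 was present in 9 of 40 Vip spots in replicate 1 (22.5%, against 2.79% of the others) and in 4 of 16 in replicate 2 (25%, against 2.02%). All of these 9 and 4 spots were among the spots with high sums, which were chosen by these very counts. The high-sum spots were also 9 of the 22 and 5 of the 12 spots that held both Cartpt and Vip. Penk was no more frequent in Cartpt spots than elsewhere, at 53.6%, against 54.4% of the others, in replicate 1 and at 52.2%, against 62.7%, in replicate 2. Spots with Cartpt had a median of 30413 UMIs in replicate 1, against 24774 in the others, and 25055 in replicate 2, against 25751.

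The genes most like Cartpt and Penk across P0 spots followed the same split. Only members with at least 100 UMIs in a section were compared: Cartpt, Vip and Penk in replicate 1, Cartpt and Penk in replicate 2. Likeness was the Pearson correlation of log(1 + UMIs per 10000) over the 363 or 264 spots of a section, among genes with at least 200 UMIs; these spots share a library and differ in depth, and the values are descriptive. Cartpt and Vip correlated at 0.84 in replicate 1, where Vip had 114 UMIs. The 9 spots with high sums held 72.1% of Cartpt and 68.4% of Vip UMIs there. In replicate 2 Vip had 34 UMIs, and the pair was not compared. Next for Cartpt in replicate 1 were Map1b (0.37), a microtubule protein of neurons, Itpk1 (0.36), an inositol phosphate kinase, and Tubb2a (0.35), a tubulin. In replicate 2 Cartpt was most like Nnat (0.41), Ednrb (0.39), the endothelin receptor needed for enteric neural crest, and Dpysl2 (0.38), an axon growth protein. Penk was most like Dcn, the matrix proteoglycan decorin, in both sections (0.54 and 0.59), followed by Serping1 (0.53) and Col3a1 (0.52) in replicate 1 and by Col1a1 (0.58) and Col3a1 (0.56) in replicate 2.

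Receptors and intracellular targets of these transmitters were counted in the same fits. Counts of genes called are to be read beside the shares over all genes tested, 29.4% higher and 26.7% lower in the muscle-rich comparison and 11.6% higher and 12.3% lower in the nerve-rich one, and genes low in one region enter through the other. Of 24 such genes, 7 had enough UMIs, and 7 were higher in muscle-rich than in epithelium-rich spots, with a median log2 fold change of 2.51 beside 0.04 over all genes tested. Adcyap1r1, a receptor of the VIP-related peptide PACAP, had 13.1 and 20.4 CPM in muscle-rich spots, against 0.270 and 1.39 CPM in epithelium-rich spots (log2 fold change 4.11 ± 0.51). Gucy1a1 and Gucy1b1, the subunits of the nitric oxide receptor guanylate cyclase, rose by 3.04 ± 0.21 and 2.96 ± 0.23. In nerve-rich against other wall spots 4 of the 7 rose, among them Adcyap1r1 (1.91 ± 0.40), Gucy1b1 (1.36 ± 0.19) and Gucy1a1 (1.08 ± 0.17), with a median of 1.08 beside −0.01. The smooth muscle list was also higher in nerve-rich spots, at 17827 and 11474 CPM, against 7825 and 5729 CPM. Its part in these changes was not tested. Vipr2, a VIP receptor, had 12.9 and 18.3 CPM in nerve-rich spots, against 16.7 and 10.3 CPM in other wall spots, and did not pass there (log2 fold change 0.07 ± 0.34, adjusted p = 0.910).

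Genes of peptide processing and secretory granules showed both directions. In the muscle-rich comparison 5 of the 6 tested (of 8) rose and 1 fell, beside 29.4% and 26.7% of all genes. Pcsk1n, an inhibitor of a prohormone convertase, had 27.3 and 19.8 CPM in muscle-rich spots, against 1.08 and 0.347 CPM in epithelium-rich spots (4.66 ± 0.45). Scg5, the chaperone 7B2 of granules, rose by 4.12 ± 0.63, and Cpe, the carboxypeptidase that trims peptide precursors, rose by 3.71 ± 0.12. Cpd, a carboxypeptidase of the secretory pathway of many cells, fell by 1.35 ± 0.13. In nerve-rich against other wall spots 4 rose and 1 fell, beside 11.6% and 12.3% of all genes, with Pcsk1n at 4.36 ± 0.35, Scg5 at 2.54 ± 0.53, Cpe at 1.91 ± 0.11 and Cpd at −0.74 ± 0.14 on the log2 scale.

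Other transmitters left a thin trace. None of 12 further peptide genes had enough UMIs in either fit. Of 13 genes for other transmitters, Ddc, an enzyme of monoamine synthesis (3.98 ± 0.39), and Ache, acetylcholinesterase (3.72 ± 0.50), were tested and higher in muscle-rich spots. In nerve-rich spots 4 were tested and 2 rose, beside 11.6% of all genes: Slc18a2, the vesicular monoamine transporter (4.77 ± 0.92; 4.85 and 11.9 CPM in nerve-rich spots, against 0.187 and 0.279 CPM), and Slc5a7, the choline transporter (3.53 ± 0.99). Both were near 0 in other wall spots and passed the filter through the nerve-rich spots. Chat, the acetylcholine synthase gene, had 0 UMIs in all P0 sums. Of 3 genes related to nitric oxide synthesis beside Nos1, Nos3, the endothelial synthase, was the 1 tested, at 1.02 ± 0.57 in the muscle-rich comparison (adjusted p = 0.135) and 1.16 ± 0.45 in the nerve-rich comparison (adjusted p = 0.0720).

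In the embryo sections the genes were described in the highest 2% of spots of each of 20 marker lists (64 spots at E13.5, 72 at E16.5), with no test. Several lists are not borne out by their defining markers there: Neurog3, Ins1 and Ins2 had 0 UMIs in the spots chosen by the endocrine list at both stages, Cga and Pou1f1 in those of the pituitary list at E13.5, and the steroidogenic and E16.5 liver lists rested on genes with mostly under 1 UMI per spot. Lists also share spots: the neuron and CNS neurons lists had 47 in common at E13.5 and 36 in common at E16.5, with 30 between sensory ganglia and autonomic neurons at E16.5. Values of lists that share spots are not separate observations.

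Vip was highest where autonomic and, later, smooth muscle markers were. At E13.5 it reached 45.2 CPM in spots rich in autonomic neuron markers (36.96 to 54.7), such as Hand2 and Ret, where 105 of its 227 UMIs lay. At E16.5 it reached 35.9 CPM in smooth muscle-rich spots (27.1 to 46.7) and 32.4 CPM in autonomic-rich spots (24.9 to 41.5), 9 spots being in both, against 2.02 CPM in the whole section. At E13.5 the smooth muscle-rich spots held 3.52 CPM of Vip.

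Nos1 at E16.5 stood at 15.4 CPM in both the autonomic-rich and the smooth muscle-rich spots (30 and 24 UMIs), at 13.6 CPM in glia-rich spots and at 13.2 CPM in spots rich in neural progenitor markers, with overlapping intervals. Its section level was 5.90 CPM. At E13.5 its highest value was 4.62 CPM in spots rich in sensory ganglion markers, from 10 UMIs, and its intervals over the leading lists overlapped. No gene reached a correlation of 0.3 with Nos1 in either embryo section.

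Cartpt followed neuronal markers of several kinds. At E13.5 it stood at 275 CPM in neuron-rich, 258 CPM in CNS neuron-rich and 248 CPM in autonomic-rich spots, 3 values whose intervals overlapped in turn, and at 1.33 CPM in epithelium-rich spots. At E16.5 it stood at 231 CPM in autonomic-rich spots (210 to 253), above 162 CPM in spots rich in sensory ganglion markers and 130 CPM in neuron-rich spots. The genes most like it were the neurofilament genes Nefm (0.50) and Nefl (0.49) and the synaptic gene Snap25 (0.49) at E13.5, and Dner, Stmn2 and Rtn1 (0.49, 0.49 and 0.48) at E16.5.

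Gal was highest in sensory ganglion-rich spots in both sections. It stood at 262 CPM there at E13.5 (241 to 285), where 63 of 64 spots held a UMI, against 10.3 CPM in all other spots. At E16.5 it stood at 62.3 CPM in such spots (51.0 to 75.5), against 8.60 CPM in all others. Among the genes most like Gal were Ppp1r1c (0.57) and Isl2 (0.56), a homeobox gene of sensory and motor neurons, at E13.5 and Pcp4, Uchl1 and Stmn2 (0.42, 0.40 and 0.39) at E16.5.

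Npy lay mostly outside the lists at E13.5. Its 32 highest spots by UMIs per 10000, each with 62 UMIs or more, were in none of the 20 lists. Npy was not alone in this. In no list were 30 of the 32 highest spots for Sst and for Nos1, 29 for Tac1 and 24 for Penk. The numbers were 18 for Cartpt, 11 for Vip and 3 for Gal. With 20 lists of 2% of spots each, which share spots, most spots of the section are in none. That share was not counted, so these numbers are a description only. The fewest UMIs among a gene's highest spots were 22 for Cartpt, 11 for Sst, and 1 for Nos1, Tac1, Penk, Vip and Gal. Some of those spots thus rank high through low depth. The list values of these genes need not show where they peaked, and spots with 1 UMI do not show it either. At E13.5 Npy stood at 285 CPM in autonomic-rich spots (264 to 308), but 41.4 CPM in neuron-rich and 22.95 CPM in CNS neuron-rich spots, below the 132 CPM of the section. The genes most like it were Hoxb9 (0.74) and Hoxb8 (0.69), position genes of the trunk, and Gbx1 (0.68), a homeobox gene of the spinal cord. Hoxb8 led at E16.5 (0.67), followed by Grm5 and Prrxl1 (0.61 each).

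Sst stood at 173 CPM in CNS neuron-rich spots at E16.5 (158 to 190) and 142 CPM in neuron-rich spots, against 78.5 and 72.2 CPM in those spots at E13.5, where the section stood at 86.7 CPM. It was most like Ina (0.67), Lamp5 (0.66) and Rtn1 (0.66) at E13.5 and like Pcp4, Gpm6a and Rtn1 (0.69 each) at E16.5, all genes known from neurons. Tac1 stood at 365 CPM in the spots chosen by the endocrine list at E16.5 and at 182 CPM in glia-rich spots, 9 spots being in both. At E13.5 Tac1 was near its section level of 28.0 CPM in neuron-rich (33.8 CPM, 27.8 to 40.7), CNS neuron-rich (24.7 CPM) and sensory ganglion-rich spots (25.4 CPM), and at 5.59 CPM in autonomic-rich spots. It was most like Skor1 (0.49), a repressor gene of dorsal cord neurons, Slc1a2 (0.42), a glutamate transporter known from glia, and Reln (0.42), the secreted protein reelin, at E13.5, and like Syt4, Pcp4 and Rtn1 (0.63, 0.63 and 0.62) at E16.5.

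Among the lists given here, Penk was highest in cartilage-rich spots at E13.5 and in mesenchyme-rich spots at E16.5. At E13.5 it stood at 347 CPM in cartilage-rich spots (304 to 395), 167 CPM in epithelium-rich spots and 161 CPM in smooth muscle-rich spots, but at 38.7 CPM in neuron-rich spots. At E16.5 the neuron-rich spots, at 106 CPM, and the CNS neuron-rich spots, at 125 CPM, were near the 113 CPM of the section. At E16.5 it stood at 466 CPM in mesenchyme-rich (433 to 500) and 329 CPM in cartilage-rich spots. The cartilage-rich spots were shallow at E13.5, with a median of 9647.5 UMIs. The genes most like Penk were the collagens Col11a1 (0.46), Col2a1 (0.45) and Col9a1 (0.45) at E13.5, which are also cartilage markers here, and Col16a1, Col12a1 and Mfap2 (0.44, 0.44 and 0.43) at E16.5. Collagen genes thus stood among the 3 genes most like Penk in all 4 sections.

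**Figure D5:**
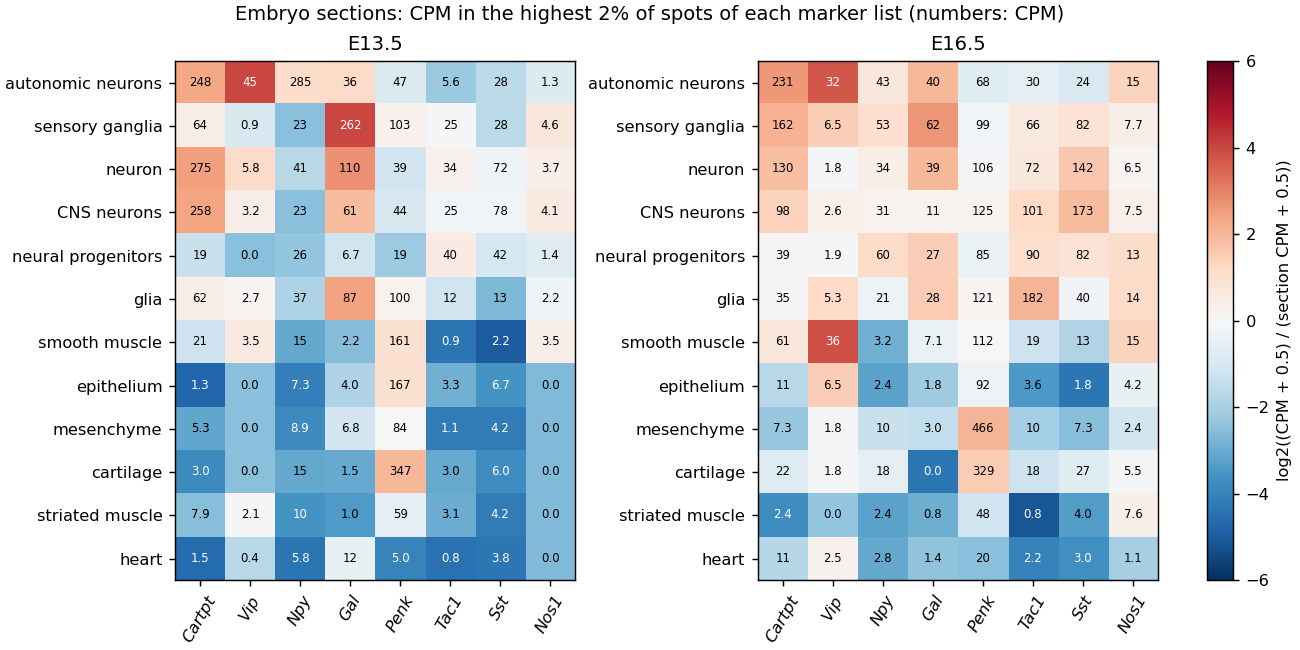
CPM of each gene (numbers) in the highest 2% of spots by 12 marker lists in the E13.5 (left) and E16.5 (right) sections, coloured by the log2 ratio to the CPM of the whole section with 0.5 added to both. Vip is reddest in autonomic-rich spots at both stages and in smooth muscle-rich spots at E16.5 (45.2, 32.4 and 35.9 CPM), Gal in sensory ganglion-rich spots at E13.5 (262 CPM), and Penk in mesenchyme-rich spots at E16.5 (466 CPM).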

How the data were processed

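UMIs per gene and spot were measured in 4 Visium sections: E13.5, E16.5 and 2 of P0, grouped by the sample titles. The deposited matrices hold raw counts, whole-number UMIs with no normalization, made with Space Ranger 2.0.0 per the file headers, and with mm10 per the submitters' processing notes. Other reads-level settings are not given in the sources used here, and the animals behind the sections are not named.

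A minimum of 500 UMIs per spot left 363 and 264 spots at P0. Their counts, added up within each region of a section (6 sums per fit), were fitted with edgeR 4.0.16 in R 4.3.3: TMM, filterByExpr, quasi-likelihood F test, a term for the section, and a threshold of 0.05 after Benjamini-Hochberg adjustment over all genes tested. This block pairs regions of 1 section. Genes that select a region were left out of its tests. The p-values measure how far a difference within a section varies between 2 sections, which may be technical. Residual degrees of freedom were 2, with 17.1 and 14.6 borrowed from other genes. On simulated data the muscle fit (12689 genes) recovered 57% of the genes given a log2 change of 1 and 83% of those given 2, with 4 of 12489 unchanged genes called; the nerve fit (12975 genes) recovered 58% and 88%, with 7 of 12775 called. The simulation changed 200 genes, in both directions alike, and left all others without a region difference. Each gene's spread was taken from the trend over genes. In the real fits 56.0% and 23.8% of genes were called, so the simulated numbers do not give the rate of false calls there. Shares carry no test. Each embryo stage is a single section, so ratios between stages carry exact conditional 95% intervals.

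The named genes are the 8 members, at most 3 genes per direction of each pathway list past the threshold, and up to 3 genes most like each member at a correlation of 0.3 or more; some of these are not reported here. Genes that did not pass (Vipr2, Nos3), Chat and the high-sum spots were singled out after their values were seen. The members and lists were chosen with earlier results of these data known. Alternatives covered the count filter, DESeq2 1.42.0 (size factors and Wald test), the section block, the spot minimum, region sizes, marker lists, TMM factors for the ratios between stages, thinning and single spots.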

Additional observations from a re-analysis of the deposited data

Results flagged for a closer look

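Of 139 combinations of a gene and one of the 20 marker lists with UMIs at both embryonic stages, 12 had opposite directions with intervals that excluded 0 at both, each as the log2 ratio of CPM in the highest 2% of spots of the list over all other spots; with 1 section per stage the difference was not tested. Npy was below the other spots at E13.5 and above them at E16.5 in neuron-rich (−1.71 and 0.36), neural progenitor-rich (−2.36 and 1.22) and sensory ganglion-rich spots (−2.54 and 1.03). Sst did the same in neuron-rich (−0.27 and 1.73), neural progenitor-rich (−1.06 and 0.90) and sensory ganglion-rich spots (−1.64 and 0.87). Tac1 stood at −1.26 at E13.5 and 2.13 at E16.5 in glia-rich spots. Gal stood at −1.27 and 1.58 in neural progenitor-rich spots, and Cartpt at −1.26 and 0.72 in smooth muscle-rich spots. Penk ran the other way in epithelium-rich spots, at 0.97 and −0.30. In spots of the liver list, most of whose genes were under 1 UMI per spot at E16.5, Cartpt stood at −3.49 and 0.65 and Sst at −4.73 and 0.85. The neuron list shared 26 spots with the sensory ganglia list at E16.5, against 14 at E13.5, and its part in the ratios was not tested.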

How the results depend on the processing

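With no replicate block, 5 members were called higher in each P0 comparison, as with the block, and 6794 and 2566 genes were called in all. The 2 sections bound every test, and Gal, Tac1 and Npy are limited by 13, 18 and 49 UMIs. In the muscle-rich comparison the 5 members kept their calls under each alternative run in which they were tested; Npy was not tested without its highest spots. DESeq2's Wald test called 4718 genes there (7112 with edgeR). In the nerve-rich comparison (3093 genes) it called 1429, the highest 25% of spots gave 516, neuron markers alone 1689 and glia markers alone 793, and glia markers alone left 3 members higher. Without a count filter Gal and Tac1 entered: Tac1 passed in the muscle-rich comparison and Gal in the nerve-rich one, making 6 members called in each. With 1 section left, values with no test ranged from 4.47 to 7.46 for Cartpt, 3.48 to 5.27 for Vip, 3.06 to 3.94 for Npy, 1.51 to 1.93 for Penk and 3.71 to 6.30 for Nos1 in the muscle-rich comparison, and from 4.97 to 5.54, 4.03 to 4.95, 5.67 to 6.597, −0.07 to 0.00 and 4.27 to 4.92 in the nerve-rich one (Tac1 2.96 to 3.88). These single-section values are plain log2 ratios of UMIs over the total of a region, with a small constant added and no TMM factors. They are a different measure from the edgeR estimates, and those of Penk, 1.47 and −0.13, lie outside its ranges. No member that passed changed sign. Levels stayed within their intervals in 64 of 64 settings of the spot minimum, and with TMM factors 7 log2 ratios between stages moved beyond theirs and 15 did not. Leaving out the highest spot of each distance class moved 7 values of Cartpt and Penk and left 13. Thinning moved 22 shares of spots beyond their intervals and left 10 within, and taking 1% or 4% of spots moved 23 embryo list values and left 9.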

Other observations

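In the embryo sections Vip spots were checked for the other genes. The change between stages was not tested. Of 141 Vip spots at E16.5, 28.4% held a Nos1 UMI, against 11.9% of the other 3447 spots. Of 117 Vip spots at E13.5, 8.55% did, against 6.74% of the other 3103 spots. Cartpt was present in 53.9% of Vip spots at E16.5, against 26.5% of the others, and in 54.7% at E13.5, against 28.0%. Spots with Vip were somewhat deeper, with medians of 32767 UMIs at E16.5, against 26491 in the others, and 31942 at E13.5, against 29230. Spots of 1 section are not replicates, and these shares carry no test.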
